A study of Rattus norvegicus with 13 samples.

Results

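RNA-binding proteins of messenger RNA transport were measured in rat cortical axons and neurons as the transcripts that encode them. The set held every probe set whose only gene symbol begins with Hnrnp or belongs to a named list of 39 further RNA-binding proteins. It came to 50 genes and 112 probe sets, of 14217 genes and 20826 probe sets with a single symbol. Of the 39 listed genes 33 had such a probe set, and *Ybx1*, *Qki*, *Nova1*, *Msi1*, *Cpeb2* and *Pabpc1* were not analysed here. The genes were described in 3 roles: 17 heterogeneous nuclear ribonucleoproteins (hnRNPs, 31 probe sets), 17 transport granule proteins (39 probe sets) and 16 proteins of mRNA stability, decay and translation (42 probe sets).

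Regenerating axons (3 arrays) had been cut on day 11 in culture and were harvested 2 days later. Neurons (3 arrays), taken from the neuronal compartment, and axons (7 arrays, from 3 culture batches) were both left uninjured and harvested on day 13. All came from cortical cells grown in a compartmentalised microfluidic platform, a device in which axons grow into a chamber away from the cell bodies, in Neurobasal E medium with B27; the labels give no strain or age of the animals. Material of 3 platforms was pooled for each array, and polyadenylated RNA was amplified in 2 rounds before labelling, so an array is a pool and not an animal. Which uninjured array came from which batch is not stated, nor are separate cultures for the other 2 groups, so p-values cover only the spread between these arrays, which may be technical.

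The deposited values are linear ratios, and their log2 was averaged over all probe sets of a gene. Uninjured array 7 reads exactly 1 everywhere and carries no measurement, which leaves 6 uninjured arrays. In every row the median of uninjured arrays 1 to 3, and that of arrays 4 to 6, is 1. Their ratios therefore lie around 1 by construction and hold no difference between these sets. The uninjured ranges, and the counts of groups that do not overlap, rest on such scaled values. The denominator of the neuron and regenerating ratios is not given in the sources used here. Uninjured axons were assumed, and each direction against uninjured axons rests on that assumption. A ratio holds no signal level, so levels cannot be compared between genes and a low ratio does not show absence from axons. In pooled material, fewer cells or axons of one kind and less RNA in each cannot be told apart.

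Messenger RNAs leave the nucleus coated with hnRNPs, which package pre-mRNA, steer its splicing and in part travel on with it to the cytoplasm. Transport granule proteins such as zipcode-binding proteins, Staufens and the fragile X proteins bind elements in the RNA, couple it to motors and hold it silent until it is translated in dendrites or axons. A further group, the Hu, CELF, PCBP, CPEB and Pumilio families, sets how long an mRNA lasts and how much is translated. Hu, CELF, PCBP and CPEB proteins read AU-rich, GU-rich, C-rich and polyadenylation elements, in that order.

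**Figure D1:**
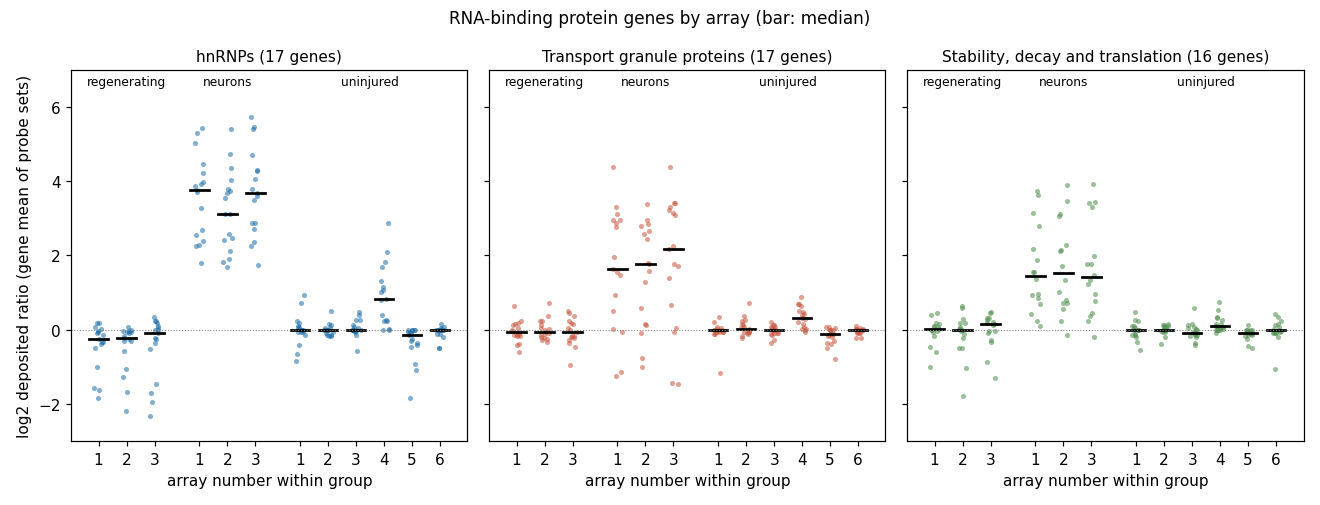
Log2 of the deposited ratio (vertical axis) of each gene in the 3 regenerating, 3 neuron and 6 measured uninjured arrays, in 1 panel per role; points are genes and bars are medians. The hnRNP medians lie at -0.25 to -0.11 in regenerating arrays, at 3.11 to 3.76 in neuron arrays and at -0.14 to 0.82 in uninjured arrays.

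Neurons were compared with uninjured axons to ask which of these transcripts differ between the cell body compartment and the axon. Of the 50 genes 41 were higher in neurons and 2, *Igf2bp2* and *Igf2bp1*, were lower, at an adjusted p under 0.05 in limma over all genes. Over all 14217 genes 36.9% were higher and 23.0% were lower by the same rule. The median log2 difference was 3.66 for hnRNPs, 1.70 for transport granule proteins and 1.46 for stability and translation proteins, beside 0.22 for all genes. These are medians of gene means, and hnRNPs had fewer probe sets per gene than the other roles. The part of that averaging in the gap between roles was not tested. Ratios of neurons lay wholly above those of uninjured axons in 43 genes and wholly below them in 2, where 41.8% and 30.3% of all genes did so.

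The neuron material differed in other ways as well. All 8 neuron markers were higher (median log2 difference 3.68), and so were all 8 astrocyte markers (3.54), whose array medians were 3.34 to 3.68 in neurons and -0.03 to 0.12 in uninjured axons. Of 7 oligodendrocyte markers 3 were higher and 1 was lower, and all 8 microglia markers were lower. The 18 hybridisation control probe sets, for transcripts added in a fixed amount, had medians of 0.276, 0.910 and 0.157 in the 3 neuron arrays, against 0.928 to 1.10 in the uninjured arrays. The control probe sets at the 3′ and 5′ ends of 1 transcript also diverged. Their log2 difference (3′ minus 5′) was -2.22, -1.74 and -2.09 for GAPDH and 2.37, 1.95 and 2.70 for hexokinase in neurons, against -0.15 to 0.48 and -0.35 to 0.28 in uninjured axons. The part of these in the results was not tested.

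All 17 hnRNP transcripts were higher in neurons, beside 36.9% of all genes, by log2 differences of 2.14 to 5.37. *Hnrnph1*, which encodes a splicing regulator that binds G-rich runs, read 39.5, 42.7 and 42.0 times the reference in neurons, against 0.280, 1 and 3.55 (lowest, median and highest) in uninjured axons. *Hnrnpa0*, whose product binds AU-rich elements, read 43.0, 26.6 and 52.8 in neurons, against 0.524, 1 and 4.22 in uninjured axons. No neuron array came near the uninjured range in either gene, although that range was itself wide. The differences were log2 5.37 ± 1.03 (limma adjusted p = 0.00193) and 5.29 ± 0.96 (adjusted p = 0.00141). Here and below, ± gives the limma standard error (SE) of the difference, with n = 3 neuron or 3 regenerating arrays. It draws on the spread of all measured arrays of both groups compared. Against uninjured axons it also includes the error of 1 array for the reference.

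*Hnrnpab* encodes a protein bound to the transport element of several neuronal mRNAs, and read 32.9, 20.6 and 43.6 in neurons, against 0.717, 1 and 2.22 in uninjured axons. *Hnrnpd* encodes AUF1, a regulator of decay through AU-rich elements, and read 22.1, 13.8 and 25.9 in neurons, against 0.909, 1 and 1.17 in uninjured axons. The second neuron array was the lowest of the 3 in both genes, and the groups stayed far apart. The differences were log2 4.95 ± 0.60 (limma adjusted p = 0.000149) and 4.31 ± 0.31 (adjusted p = 9.64e-06). *Hnrnpc*, for the protein that helps form the core particle on pre-mRNA, read 18.7, 12.8 and 19.4 in neurons, against 0.634, 1 and 3.21 in uninjured axons (log2 4.06 ± 0.69, adjusted p = 0.00101).

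*Hnrnpa2b1*, for the protein that recognises the A2 response element of transported mRNAs, read 6.44, 5.36 and 7.35 in neurons, against 0.950, 1.03 and 1.77 in uninjured axons (log2 2.66 ± 0.31, limma adjusted p = 0.000124). Its groups did not overlap, and its 4 probe sets ranged over log2 1.90 to 4.53. The smallest differences among the hnRNPs were those of *Hnrnpf* (2.14 ± 0.23), a relative of *Hnrnph1*, and of *Hnrnpa1* (2.15 ± 0.45), a splicing repressor. *Hnrnpf* had 1 probe set, whereas *Hnrnpa1* was a mean of 3 that ranged over log2 0.64 to 4.01. *Hnrnpl* (3.91 ± 0.25), for a protein of CA-rich RNA, and its relative *Hnrnpll* (3.38 ± 0.50) lay near the middle of the family. So did *Hnrnph3* (3.68 ± 0.32), a further relative of *Hnrnph1*, *Hnrnpu* (3.66 ± 0.44), for a nuclear scaffold protein, and the splicing regulator gene *Hnrnpm* (3.52 ± 0.46). *Hnrnpr*, for a close relative of hnRNP Q, had the same estimate as *Hnrnph3* (3.68) with an adjusted p of 0.0106. *Hnrnpa3*, a relative of *Hnrnpa2b1*, *Hnrnpul1*, a relative of *Hnrnpu*, and *Hnrnpdl*, a relative of *Hnrnpd*, lay at 2.32, 2.25 and 2.18. The values of *Hnrnpa3* and *Hnrnpdl* were means of 5 and 3 probe sets, at 1.43 to 3.02 and -0.30 to 4.26. *Hnrnph1*, *Hnrnpa0*, *Hnrnpab*, *Hnrnpd* and *Hnrnpc* had 1 probe set each. The order of the genes therefore cannot be read apart from the number of probe sets averaged.

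The promoters of 4 genes are shown because 3 of them, *Hnrnph1*, *Hnrnpa0* and *Hnrnpab*, had the largest excess in neurons and *Igf2bp2* the largest deficit. Each is 300 bases from RefSeq (GRCr8), 250 before and 50 after the start that its promoter table gives, read 5′ to 3′ along the gene's strand. For *Hnrnph1* that start lies 7221 bases inside the gene as annotated in the same assembly, and for the other 3 it is the gene's outer end. Capitals mark motif matches on either strand. The motif searched as the GC box was GGGCGG, and that of the E-box was CACGTG. The ETS core was searched as the letters CCGGAAG. The NRF1 core was searched with the letters GCGCATGCG. The CCAAT box is spelled by its name, and the letters of the TATA box were TATAAA. None of these motifs contains another.
Hnrnph1 (chr10:35194383-35194682, + strand): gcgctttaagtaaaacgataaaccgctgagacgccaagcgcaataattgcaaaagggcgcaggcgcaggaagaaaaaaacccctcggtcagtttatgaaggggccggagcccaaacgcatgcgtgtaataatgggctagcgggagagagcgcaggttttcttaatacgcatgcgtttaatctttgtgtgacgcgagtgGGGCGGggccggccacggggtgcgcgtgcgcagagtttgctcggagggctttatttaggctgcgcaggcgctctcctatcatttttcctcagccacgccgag
Hnrnpa0 (chr17:6512879-6513178, + strand): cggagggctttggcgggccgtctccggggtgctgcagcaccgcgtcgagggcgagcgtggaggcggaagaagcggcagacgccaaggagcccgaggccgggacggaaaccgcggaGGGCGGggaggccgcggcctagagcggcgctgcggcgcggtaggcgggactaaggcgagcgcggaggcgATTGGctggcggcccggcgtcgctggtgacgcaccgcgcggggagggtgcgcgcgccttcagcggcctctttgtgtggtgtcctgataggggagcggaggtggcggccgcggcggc
Hnrnpab (chr10:36363849-36364148, - strand): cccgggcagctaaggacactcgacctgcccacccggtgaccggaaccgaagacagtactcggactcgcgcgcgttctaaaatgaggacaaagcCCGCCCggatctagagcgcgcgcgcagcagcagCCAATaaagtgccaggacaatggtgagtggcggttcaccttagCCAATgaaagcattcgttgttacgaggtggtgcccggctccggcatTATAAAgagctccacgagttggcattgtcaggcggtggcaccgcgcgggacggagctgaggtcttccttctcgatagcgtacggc
Igf2bp2 (chr11:92378658-92378957, + strand): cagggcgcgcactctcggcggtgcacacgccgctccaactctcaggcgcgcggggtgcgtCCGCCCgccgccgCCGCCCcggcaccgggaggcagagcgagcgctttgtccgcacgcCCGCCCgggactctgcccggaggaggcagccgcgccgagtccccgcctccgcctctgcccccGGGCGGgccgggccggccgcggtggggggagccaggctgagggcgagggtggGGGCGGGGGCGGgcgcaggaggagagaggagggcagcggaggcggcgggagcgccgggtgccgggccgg

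RefSeq promoters were matched for 44 of the 50 genes. Of 43 with gene coordinates, the promoter's start was the gene's outer end in 18 and lay inside the gene in 25. The distance inside ran from 26 bases for *Syncrip* to 44350 for *Caprin1*, 54729 for *Celf1* and 61443 for *Elavl4*. The windows are therefore not alike between genes, which limits the counts by role that follow. A CCAAT box was found in 14 of 16 hnRNP promoters (87.5%), 2 of 15 transport granule promoters (13.3%) and 5 of 13 stability and translation promoters (38.5%), beside 37.5% of all 33465 promoters. *Hnrnph1* and *Hnrnpd* were the 2 hnRNP promoters without it. A GC box was found in 13 of 16, 13 of 15 and 9 of 13 promoters of the same roles, beside 33.1% of all. An E-box was found in 4, 5 and 3 of them, beside 6.42% of all, and a TATA box in 3, 1 and 4, beside 14.2%. The ETS core was found in 7 and the NRF1 core in 3 of the 44, beside 8.75% and 1.52% of all. Median CpG counts were 28.5, 33 and 33 in the 3 roles, against 7 over all promoters. A match is a run of letters in this window and not a binding site.

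Of the 17 transport granule transcripts 12 were higher in neurons and 2 were lower, beside 36.9% and 23.0% of all genes. Largest was *Ncl* (log2 4.05 ± 0.58), for nucleolin, a mainly nucleolar protein that also binds localised mRNAs. *G3bp2* (3.16 ± 0.25) and *Caprin1* (2.81 ± 0.26), for a partner pair of stress granule and transport granule proteins, and *Khdrbs1* (2.99 ± 0.49), for the STAR protein Sam68, were also higher. *Tardbp*, for TDP-43, which binds UG-rich RNA and travels along axons, read 9.94, 5.42 and 10.6 in neurons, against 0.943, 0.971 and 1.84 in uninjured axons. *Fmr1*, for the translational repressor lost in fragile X syndrome, read 7.77, 6.32 and 9.87 in neurons, against 0.942, 1 and 1.32 in uninjured axons. Both genes were clear of the uninjured range in every neuron array, by log2 3.05 ± 0.43 (limma adjusted p = 0.000357) and 2.97 ± 0.28 (adjusted p = 3.27e-05).

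The 2 Staufen genes, for double-stranded RNA binding proteins of dendritic granules, differed in size. *Stau2*, the form found mainly in brain, read 7.38, 7.12 and 8.80 in neurons, against 0.884, 1.02 and 1.35 in uninjured axons (log2 2.95 ± 0.25, limma adjusted p = 1.9e-05). *Stau1*, the broadly expressed form, read 2.79, 3.44 and 3.43 in neurons, against 0.768, 1 and 1.54 in uninjured axons (1.68 ± 0.33, adjusted p = 0.00224). Neither overlapped, and whether the genes differ from each other was not tested. Among the relatives of *Fmr1*, *Fxr1* was higher by 1.70 ± 0.35 and *Fxr2* by 0.97 ± 0.26, and *Syncrip* (hnRNP Q) and *G3bp1* were higher by 2.00 ± 0.26 and 1.61 ± 0.32.

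The zipcode-binding protein family, which recognises an element in the 3′ end of beta-actin mRNA, did not follow the others. *Igf2bp1*, for ZBP1, read 0.453, 0.593 and 0.358 in neurons, against 0.858, 1 and 1.26 in uninjured axons. *Igf2bp2* read 0.420, 0.493 and 0.369 in neurons, against 0.811, 0.983 and 1.04 in uninjured axons. Every neuron array lay below every uninjured array in both genes. The differences were log2 -1.13 ± 0.29 (2.18-fold lower, limma adjusted p = 0.0079) and -1.24 ± 0.21 (2.36-fold lower, adjusted p = 0.00105), and the 2 probe sets of *Igf2bp2* read -1.29 and -1.19. The 8 microglia markers spanned -1.43 to -0.71 in the same comparison (median -0.93), so both values lie within the range of genes that define another cell type, and their part in the result was not tested. *Igf2bp3*, the third family member, read 1.02, 1.11 and 1.03 in neurons, against 0.936, 1.05 and 1.15 in uninjured axons, and did not pass (0.07 ± 0.17, adjusted p = 0.729).

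The purine-rich element binding proteins, components of kinesin-bound granules, did not pass either. *Pura* read 1.40, 1.10 and 1.59 in neurons, against 0.938, 1 and 1.04 in uninjured axons (log2 0.43 ± 0.21, limma adjusted p = 0.103). *Purb* read 0.956, 0.941 and 0.955 in neurons, against 0.901, 0.994 and 1.10 in uninjured axons (-0.07 ± 0.17, adjusted p = 0.726). The *Pura* arrays lay above the uninjured range, whereas those of *Purb* lay inside it. Without the second neuron array *Pura* passed (0.58, adjusted p = 0.0143).

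**Figure D2:**
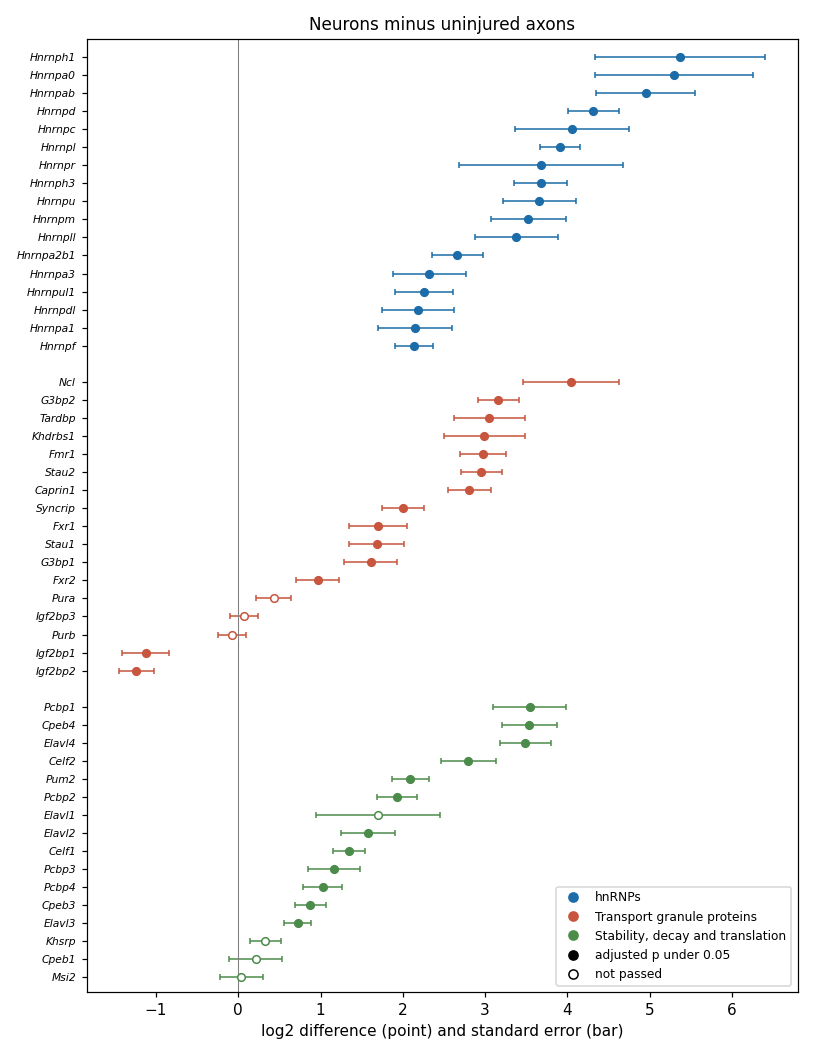
Log2 difference of neurons minus uninjured axons (horizontal axis) for the 50 genes by role; points are limma estimates, bars standard errors, and filled points passed at an adjusted p under 0.05. All 17 hnRNPs lie between 2.14 and 5.37, and *Igf2bp1* and *Igf2bp2* are the filled points below 0.

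Of the 16 stability, decay and translation transcripts 12 were higher in neurons, beside 36.9% of all genes, and the other 4 did not pass. *Elavl4*, for the neuronal AU-rich element binding protein HuD, read 8.89, 14.8 and 10.8 in neurons, against 0.943, 1 and 1.49 in uninjured axons (log2 3.49 ± 0.31, limma adjusted p = 2.61e-05). Its neuronal relatives *Elavl2* (1.58 ± 0.33) and *Elavl3* (0.72 ± 0.17) were higher by less. *Elavl1*, for the ubiquitous HuR, had a spread too wide to pass, at 2.90, 8.62 and 1.36 in neurons, against 0.876, 0.975 and 1.45 in uninjured axons (1.70 ± 0.75, adjusted p = 0.0755). Without the third neuron array it passed (2.32, adjusted p = 0.0078).

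Poly(C)-binding proteins were higher in all 4 cases, at log2 3.54 ± 0.44 for *Pcbp1*, 1.93 ± 0.25 for *Pcbp2*, 1.17 ± 0.32 for *Pcbp3* and 1.03 ± 0.23 for *Pcbp4*. Among the CPEB proteins, which bind the cytoplasmic polyadenylation element, *Cpeb4* was higher by 3.54 ± 0.34 and *Cpeb3* by 0.88 ± 0.19. *Cpeb1* read 1.33, 0.901 and 1.29 in neurons, against 0.742, 1 and 1.26 in uninjured axons, and did not pass (0.21 ± 0.33, limma adjusted p = 0.588). *Celf2* and *Celf1*, for splicing and decay factors of GU-rich elements, were higher by 2.80 ± 0.34 and 1.35 ± 0.19, and the repressor gene *Pum2* by 2.09 ± 0.22. The decay factor gene *Khsrp* (0.33 ± 0.19) and *Msi2*, for a musashi protein (0.04 ± 0.26), did not pass.

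Probe sets of 1 gene often read different values, which for several genes decided the call. Fitted singly, 79 of the 112 probe sets were higher in neurons and 9 were lower, beside 34.2% and 21.7% of all 20826 probe sets. By role, 29 of 31 hnRNP probe sets, 25 of 39 transport granule probe sets and 25 of 42 stability and translation probe sets were higher. Of the 29 genes with several probe sets, 10 had neuron means of both signs and 18 spanned more than 2 log2 units. The 9 lower probe sets belonged to *Igf2bp1*, *Igf2bp2*, *Celf1*, *Khsrp*, *Msi2*, *Pum2* and *Purb*.

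*Pum2* had the widest span, from log2 -1.64 to 4.24 in neurons over 4 probe sets, 3 of them higher. *Celf1* spanned -1.84 to 2.84 over 5 probe sets, 4 of them higher, and *Hnrnpdl* spanned -0.30 to 4.26 over 3. *Stau2* spanned 0.07 to 4.40, with 3 of its 4 probe sets at 3.64 or above. *Celf2* (0.76 to 4.73), *Khdrbs1* (1.13 to 4.85), *Elavl2* (-0.12 to 3.61), *Tardbp* (up to 4.58), *Hnrnpa1* (0.64 to 4.01), *Elavl1* (-0.10 to 2.89), *Caprin1* (0.87 to 3.85), *Syncrip* (up to 3.89), *Hnrnpu* (2.22 to 4.48), *Pcbp4* (-0.10 to 2.16) and *G3bp1* (0.59 to 2.63) also differed widely. *Msi2* did not pass as a mean, yet 1 of its probe sets was higher (2.29 ± 0.33) and 2 were lower (-0.85 ± 0.32 and -0.60 ± 0.23). *Khsrp* likewise had a higher (1.83 ± 0.56) and a lower probe set (-0.89 ± 0.31), and *Igf2bp3* (-0.50 to 0.61) and *Purb* (-0.61 to 0.19) crossed 0 in a narrow range. Which transcript form or region each probe set reads is not given in the sources used here.

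**Figure D3:**
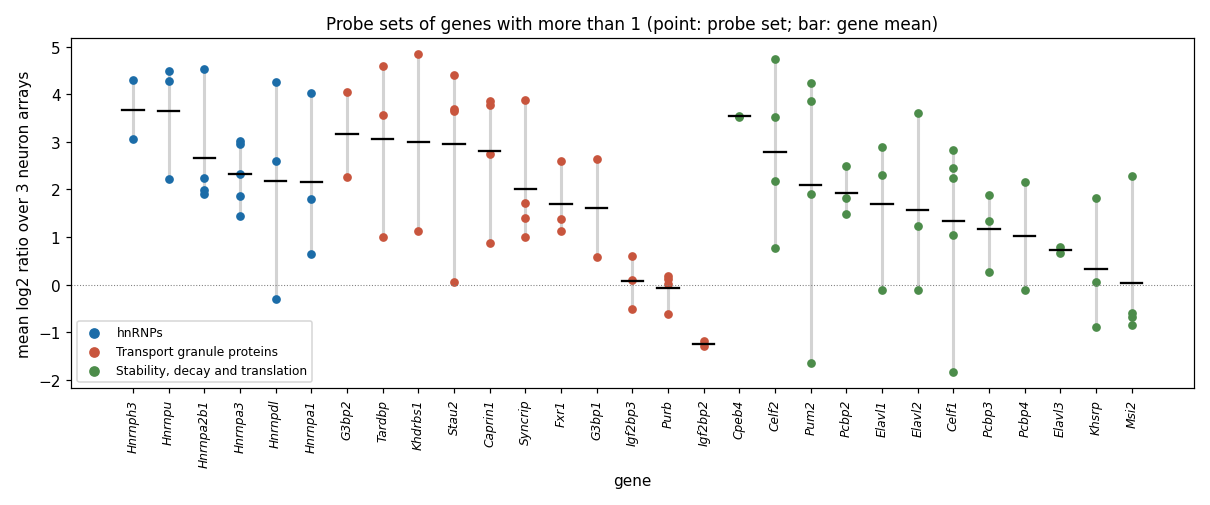
Mean log2 ratio over the 3 neuron arrays (vertical axis) of every probe set of the 29 genes with more than 1; points are probe sets, black bars gene means. *Pum2* runs from -1.64 to 4.24 and *Celf1* from -1.84 to 2.84, whereas the points of *Cpeb4* and *Igf2bp2* lie close together.

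Regenerating axons were compared with uninjured axons to ask whether cutting and regrowth altered these transcripts. None of the 50 genes passed in limma, beside 0.0352% of all genes higher and 0.689% lower. At an unadjusted p under 0.05, 3 genes were lower (*Hnrnpc*, *Pcbp1* and *Pcbp2*) and 0 were higher, beside 8.77% and 3.67% of all genes. Median log2 differences were -0.17 for hnRNPs, -0.08 for transport granule proteins and 0.03 for stability and translation proteins, beside 0.02 for all genes. Regenerating arrays lay wholly below the uninjured arrays in 8 genes (*Hnrnpc*, *Hnrnpa0*, *Hnrnpr*, *Hnrnpa2b1*, *Pcbp2*, *Elavl1*, *G3bp1* and *Syncrip*) and wholly above them in 3 (*Pum2*, *Cpeb3* and *Fxr2*), where 12.5% and 10.3% of all genes did so. Both shares of the 50 lie near the background. The absence of calls does not show that levels were alike. Leaving out 1 array gave 0 to 15 higher and 0 to 361 lower genes overall and 0 to 1 lower member. With no error given to the reference, 3 members were higher and 6 were lower.

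Low values in regenerating axons were led by hnRNPs. *Hnrnpc* read 0.278, 0.219 and 0.199 in regenerating axons, against 0.634, 1 and 3.21 in uninjured axons. *Hnrnph1* read 0.334, 0.309 and 0.260 in regenerating axons, against 0.280, 1 and 3.55 in uninjured axons. All regenerating arrays were low in both, and only *Hnrnph1* overlapped, through uninjured array 5. The differences were log2 -2.12 ± 0.68 for *Hnrnpc* (limma adjusted p = 0.191) and -1.74 ± 1.03 for *Hnrnph1* (adjusted p = 0.576). *Hnrnpa0* (-1.39 ± 0.93) and *Hnrnpr* (-1.33 ± 1.01) had errors of the same order. Without uninjured array 4, which reads high for these genes and enters the fit only through its spread, *Hnrnpc* passed with the same estimate (-2.12, limma adjusted p = 0.0372). The other 13 hnRNPs lay between -0.54 and 0.11. Neuron markers were low in the same arrays (median difference -0.97, array medians -1.29 to -0.67), and none of the 8 passed; the hybridisation controls read 1.14 to 1.57 and the GAPDH 3′ minus 5′ log2 difference -1.14 to -0.48. The part of these values was not tested.

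*Hnrnpab* and *Hnrnpd*, both far higher in neurons, did not pass in regenerating axons. *Hnrnpab* read 0.939, 0.806 and 1.27 in regenerating axons, against 0.717, 1 and 2.22 in uninjured axons (log2 -0.02 ± 0.55). *Hnrnpd* read 0.789, 0.986 and 0.840 in regenerating axons, against 0.909, 1 and 1.17 in uninjured axons (-0.20 ± 0.19, limma adjusted p = 0.782). Both overlapped the uninjured range. *Hnrnpa2b1* read 0.707, 0.667 and 0.693 in regenerating axons, against 0.950, 1.03 and 1.77 in uninjured axons, wholly below but not past the threshold (-0.54 ± 0.28, adjusted p = 0.498).

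The 4 probe sets of *Hnrnpa2b1* differed. Fitted singly over 20826 probe sets, 1 of them was lower in regenerating axons (0.443, 0.488 and 0.343, against 0.991 to 1.25 in uninjured axons; log2 -1.25 ± 0.23, limma adjusted p = 0.0487). It was the only probe set of the 112 to pass in this comparison, where 0.552% of all were lower and 0.0288% higher. A second read -1.62 ± 0.99, with uninjured array 4 at 8.63, and the other 2 read 0.16 and 0.55. These single fits were chosen after the data were seen.

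Among stability factors the low values were those of *Pcbp1*, which read 0.498, 0.289 and 0.402 in regenerating axons, against 0.476, 1 and 1.12 in uninjured axons (log2 -1.37 ± 0.43, limma adjusted p = 0.182). *Pcbp2* read 0.662, 0.485 and 0.541 in regenerating axons, against 0.686, 0.912 and 1.05 in uninjured axons (-0.84 ± 0.25, adjusted p = 0.153). For *Pcbp2* the low mean came from 1 of 3 probe sets, at 0.177, 0.0863 and 0.101 in regenerating axons (-3.12 ± 0.81, adjusted p = 0.129), while the other 2 read 0.19 and 0.40. In uninjured axons the same probe set read 0.218 in array 1 and 0.811 to 1.30 in the rest. *Elavl1* read 0.718, 0.713 and 0.788 in regenerating axons, a narrow set below all uninjured arrays (-0.44 ± 0.25).

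The highest values in regenerating axons were those of *Stau1*, *Pum2* and *Cpeb3*. *Stau1* read 1.56, 1.65 and 1.41 in regenerating axons, against 0.768, 1 and 1.54 in uninjured axons (log2 0.62 ± 0.32, limma adjusted p = 0.486). *Pum2* read 1.36, 1.49 and 1.24 in regenerating axons, against 0.784, 0.918 and 1.12 in uninjured axons (0.44 ± 0.22, adjusted p = 0.462). *Cpeb3* read 1.32, 1.55 and 1.19 in regenerating axons, against 0.896, 1 and 1.19 in uninjured axons (0.43 ± 0.19, adjusted p = 0.41). All regenerating arrays lay above 1. *Stau1* overlapped the uninjured range, *Cpeb3* cleared it by less than the rounding shown, and *Pum2* was clear of it.

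None of the zipcode-binding protein genes passed after injury. *Igf2bp1* read 0.968, 0.869 and 0.518 in regenerating axons, against 0.858, 1 and 1.26 in uninjured axons (log2 -0.40 ± 0.32, limma adjusted p = 0.736). *Igf2bp2* read 1.17, 1.18 and 0.988 in regenerating axons, against 0.811, 0.983 and 1.04 in uninjured axons (0.15 ± 0.18, adjusted p = 0.849). *Igf2bp3* read 0.885, 1.03 and 0.869 in regenerating axons (-0.11 ± 0.17). The third regenerating array was the lowest for all 3 genes.

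Among the other granule and stability proteins given by array, *Fmr1* read 0.925, 0.897 and 1.03 in regenerating axons (log2 -0.08 ± 0.22) and *Stau2* 0.951, 0.843 and 0.894 (-0.16 ± 0.23). *Pura* read 1.13, 0.849 and 1.29 (0.10 ± 0.21) and *Tardbp* 1.08, 1.28 and 1.18 (0.24 ± 0.32). *Elavl4* read 1.01, 0.711 and 1.11 (-0.11 ± 0.30) and *Cpeb1* 1.11, 1.02 and 1.40 (0.22 ± 0.30). Each of these 6 genes overlapped its uninjured range, with limma adjusted p-values of 0.866 to 0.943.

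**Figure D4:**
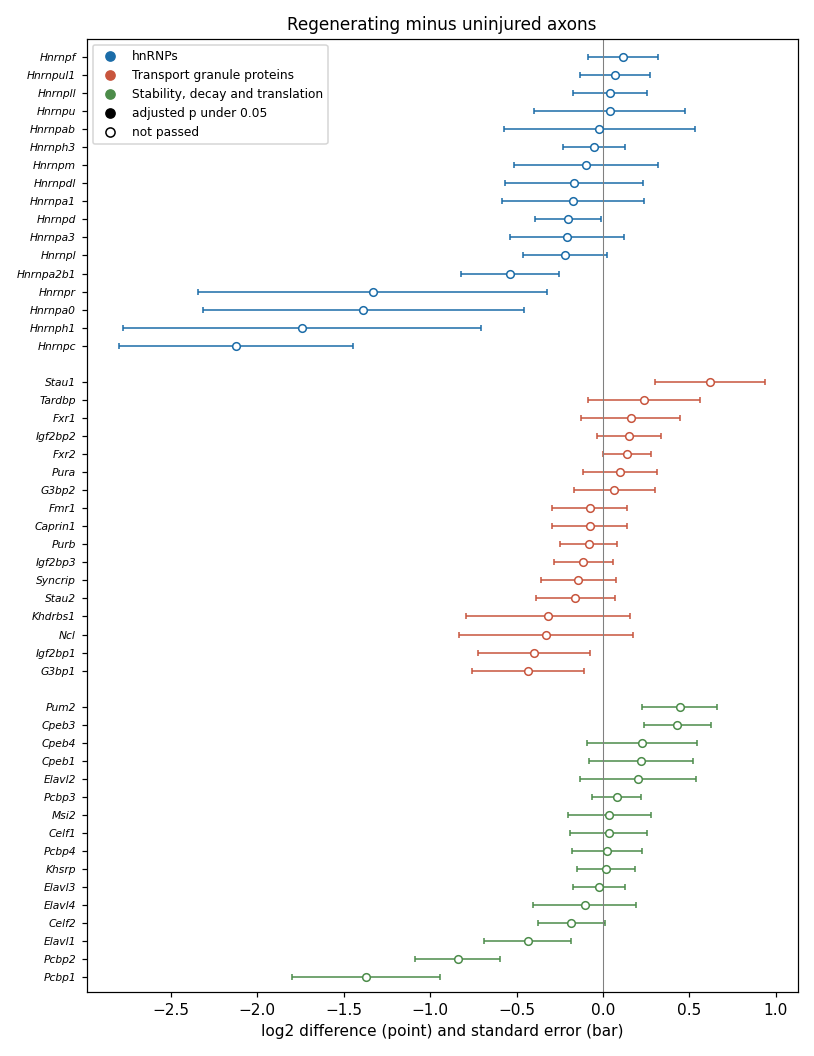
Log2 difference of regenerating minus uninjured axons (horizontal axis) for the 50 genes by role; points are limma estimates, bars standard errors, and open points did not pass at an adjusted p under 0.05. Every point is open, and *Hnrnpc* (-2.12) and *Stau1* (0.62) mark the ends.

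Regenerating axons were also set against neurons, assuming that both had been divided by the same reference. This comparison shares its arrays with both others and is given for its own values. In limma 42 of the 50 genes were lower in regenerating axons, beside 44.2% of all genes, and 2 were higher, beside 31.3%. By role 17 of 17 hnRNPs, 12 of 17 transport granule genes and 13 of 16 stability and translation genes were lower, with median log2 differences of -3.62, -2.04 and -1.34, beside -0.23 for all genes. All 8 astrocyte markers (median -3.58) and all 8 neuron markers (median -5.48) were lower in the same comparison, and their part in the result was not tested. Groups did not overlap in 43 genes on the low side and in 1, *Igf2bp2*, on the high side, beside 45.8% and 34.0% of all genes. Of the 112 probe sets 85 were lower and 9 were higher, beside 41.6% and 30.7% of all.

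*Hnrnph1* was 138-fold lower in regenerating axons than in neurons, with the array values given above (log2 -7.11 ± 0.15, limma adjusted p = 2.32e-07). *Hnrnpa0* read 0.323, 0.481 and 0.360 in regenerating axons, against 43.0, 26.6 and 52.8 in neurons (103-fold lower, log2 -6.68 ± 0.27). *Hnrnpr* read 0.492, 0.416 and 0.307 in regenerating axons, against 13.1, 13.2 and 12.2 in neurons (-5.01 ± 0.19). *Hnrnpc* (-6.18 ± 0.21) and *Hnrnpab* (-4.97 ± 0.29) completed the 5 largest. The groups lay far apart for these genes, although the neuron arrays of *Hnrnpa0* and *Hnrnpab* were themselves spread (20.6 to 43.6 for *Hnrnpab*). *Pcbp1* (-4.91 ± 0.27), *Hnrnpd* (-4.52 ± 0.24) and *Ncl* (-4.38 ± 0.28) followed.

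*Igf2bp2* was 2.61-fold higher in regenerating axons than in neurons (log2 1.39 ± 0.16, limma adjusted p = 0.000151). All 8 microglia markers were higher by 0.93 to 1.81 in the same comparison, and their part in the result was not tested. *Igf2bp1* passed narrowly (0.73 ± 0.28, adjusted p = 0.0441), with 1 regenerating array (0.518) inside the neuron range of 0.358 to 0.593. It no longer passed when regenerating array 1 or 2 or neuron array 1 or 3 was left out, with adjusted p-values of 0.102 to 0.14. *Cpeb3* was lower (-0.45 ± 0.16, adjusted p = 0.03) but lost its call when regenerating array 1 or 3 or neuron array 1 or 3 was left out (adjusted p-values of 0.0776 to 0.0997). *Khsrp*, *Msi2*, *Cpeb1*, *Pura*, *Purb* and *Igf2bp3* did not pass, with differences of -0.33 to 0.01. *Elavl1* was lower by log2 -2.13 ± 0.57 (adjusted p = 0.0102).

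Of the 3 roles, hnRNPs differed most between the uninjured arrays. In uninjured array 4 the median log2 ratio was 0.82 for hnRNPs, 0.31 for transport granule proteins, 0.09 for stability and translation proteins and 0.00 for all genes. Array 4 was the highest of the 6 for 13 of 17 hnRNPs, 9 of 17 granule genes and 5 of 16 stability and translation genes, beside 18.5% of all genes. It read at least 1.5 times its set's median for 10 of the 17 hnRNPs, beside 4.78% of all genes, and at least 2 times for 8 of them, beside 1.98%. *Hnrnpr* read 7.27 there, *Hnrnpa0* 4.22, *Hnrnph1* 3.55, *Hnrnpc* 3.21 and *Hnrnpu* 2.50, whereas *Hnrnpul1* and *Hnrnpm* read 1. Neuron markers had a median log2 ratio of -0.02, astrocyte markers of 0.12 and oligodendrocyte markers of 0.00 in array 4. Single markers departed from these medians. The astrocyte marker *Fabp7* read 14.7 there, the oligodendrocyte marker *Olig1* 6.23, and the neuron markers *Snap25* and *Nefm* 2.40 and 0.608. Their part in the hnRNP values was not tested. The hybridisation controls of array 4 lay within the uninjured range above. Array 5 was the lowest for several hnRNPs (*Hnrnph1* 0.280, *Hnrnpm* 0.470, *Hnrnpa0* 0.524). The 4 hnRNPs highest in array 4 had the largest standard errors of the family against uninjured axons in the neuron comparison (0.69 to 1.03). Such an error rises with array 4 by construction, because it includes the spread of the uninjured arrays. Over the neuron arrays alone the log2 standard deviation was 0.06 for *Hnrnph1* and *Hnrnpr*, 0.33 for *Hnrnpc* and 0.51 for *Hnrnpa0*. Without array 4, 17 of 17 hnRNPs passed as higher in neurons. Leaving it out could not change their estimates, because uninjured arrays enter the fit only through their spread.

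**Figure D5:**
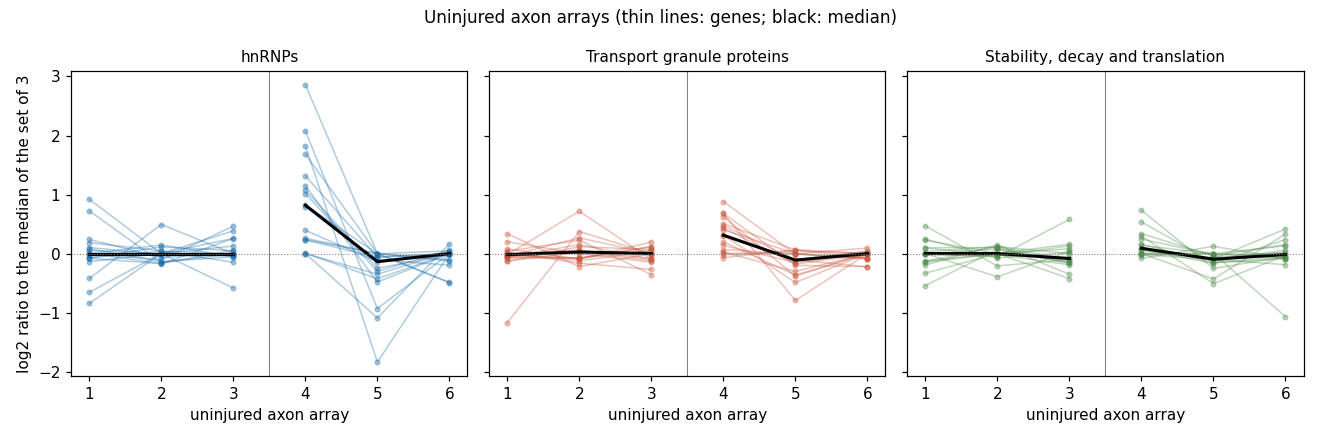
Log2 ratio to the median of the array's set of 3 (vertical axis) in uninjured arrays 1 to 6, in 1 panel per role; thin lines are genes, black lines medians, and the grey line parts arrays 1 to 3 from 4 to 6. The hnRNP median is 0.82 in array 4 and -0.14 to 0.00 in the others.

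Of 57 further RNA-binding and decay factors 48 were measured, with median log2 differences of 1.69 in neurons and -0.15 in regenerating axons, both against uninjured axons. In neurons 34 were higher and 1, *Tia1*, for a stress granule protein, was lower (log2 -0.82 ± 0.30, limma adjusted p = 0.0372), beside 36.9% and 23.0% of all genes. The largest were *Celf5* (5.14 ± 0.39), the RNA helicase gene *Dhx9* (4.32 ± 0.74) and the cold-inducible *Rbm3* (4.29 ± 0.77). In regenerating against uninjured axons none passed in limma, with 7 lower and 0 higher at an unadjusted p under 0.05, beside 8.77% and 3.67% of all genes. Against neurons 38 were lower in regenerating axons (44.2% of all genes) and 2 were higher (31.3% of all genes). The lower ones were led by *Rbm3* (-6.49 ± 0.29), *Celf5* (-6.01 ± 0.22) and *Dhx9* (-5.06 ± 0.45), and the higher ones were *Tia1* (1.14 ± 0.20) and the decay factor gene *Zfp36* (0.95 ± 0.23).

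Of 12 mRNAs known as cargo of such granules 11 had a single-symbol probe set, of which 8 were higher in neurons and 1, *Arc*, was lower (log2 -0.46 ± 0.17), beside 36.9% and 23.0% of all genes. None passed in regenerating against uninjured axons in limma, beside 0.689% of all genes lower and 0.0352% higher. At an unadjusted p under 0.05, 3 were lower and 0 higher, beside 8.77% and 3.67% of all genes. Those 3 were *Gap43*, *Map2*, for a dendritic microtubule protein (-2.34 ± 0.49, adjusted p = 0.0689), and *Mapt*, for tau (-1.01 ± 0.20, adjusted p = 0.0573), of which *Map2* and *Mapt* are also among the neuron markers. *Mapt* passed without regenerating array 1 or uninjured array 1 or 3 (adjusted p-values of 0.0325 to 0.0439), and *Map2* passed without uninjured array 4 or 5 (0.041 to 0.0417). *Gap43*, for a growth cone protein, read 0.565, 0.318 and 0.271 in regenerating axons and 2.30, 2.46 and 2.07 in neurons, against 0.530, 0.984 and 1.32 in uninjured axons. All neuron arrays lay above the uninjured range, and regenerating array 1 lay inside it. Its difference was 1.18 ± 0.39 in neurons (limma adjusted p = 0.026) and -1.45 ± 0.48 in regenerating axons (adjusted p = 0.211), both against uninjured axons. With its probe set of highest mean the difference in regenerating axons turned to 0.20 against uninjured axons and to 0.31 against neurons. Without the first neuron array the adjusted p in neurons was 0.0531, and with each array shifted to a median of 0 it was 0.0577. *Map1b*, a target of the fragile X protein, was higher in neurons by 3.50 ± 0.36 and did not pass in regenerating axons (-0.20 ± 0.25, adjusted p = 0.848). Beta-actin mRNA, the classic cargo of *Igf2bp1*, was read from a 3′ control probe set, at 0.809, 0.693 and 0.625 in regenerating axons and 71.2, 38.4 and 80.1 in neurons, against 0.965 to 1.17 in uninjured axons. The 5′ control probe set of the same mRNA read 0.796, 1.07 and 0.824 in regenerating axons and 41.4, 28.6 and 52.7 in neurons, against 0.852 to 1.06 in uninjured axons.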

How the data were processed

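The 13 GeneChip arrays were read as 1 deposited value table of 31099 probe sets. RMA (background correction, normalisation and probe summary) is named in the submitters' processing notes, with no version given. The deposited values are linear ratios made by the authors: in 100% of rows the median of uninjured arrays 1 to 3, and that of arrays 4 to 6, is 1 (tolerance 0.0001), which removes differences between those sets. The division is otherwise not described in the sources used here. Arrays give no read depth, so precision is limited by their number.

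Leaving out controls, the platform annotation gave 1 symbol to 20826 of 31042 probe sets, several to 436 and none to 9780. Log2 ratios were averaged per gene with pandas 2.3.3 (Python 3.11.15). Each group was tested against the reference, which was given the error of 1 array, and regenerating axons against neurons in a 2-group fit. Both used limma 3.58.1 (lmFit and eBayes, R 4.3.3), with Benjamini-Hochberg adjustment over all 14217 genes and a threshold of 0.05. The fits were also run on simulated data, with independent noise and the error of the reference that the fits assume. Such data cannot test the assumed denominator, the batches or the pooling. Array values are given for a fixed list of genes and for the 5 largest differences in each direction past the threshold (where fewer than 3 passed, the next by p up to 3). Values for *Gap43*, beta-actin and *Map1b* were also named in the plan. Other values outside that rule were chosen after they were seen. Among them are those of *Elavl1*, *Map2* and *Mapt*, of *Hnrnph1* in regenerating against uninjured axons, and of single markers in uninjured array 4. Members and lists were chosen with earlier results of these data known. Identifiers of 49 of the 50 genes were found in the RefSeq table of GRCr8, and 0 symbols changed.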

Additional observations from a re-analysis of the deposited data

Results flagged for a closer look

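Among 22 genes of the report tested over the 6 measured uninjured arrays, 5 had 1 array far from the other 5 by Dixon's ratio. For independent values, chance alone meets this rule in about 1 group in 20. The arrays were divided by the median of their set of 3 and are not independent, so that rate does not hold here. Array 4 was the high one for *Hnrnpr*, which read 7.27 there and at most 1.41 elsewhere. It was also the high one for *Tardbp* (1.84, with the next at 1.09) and for *Hnrnpa2b1* (1.77, with the next at 1.08). *Elavl4* read 1.49 in array 3, with the next at 1.10. *Igf2bp2* read 0.811 in array 5, below all others, with the next at 0.949.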

How the results depend on the processing

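Of the gene values recomputed under each alternative, 1502 kept their direction and side of the threshold, 27 came to pass, 10 ceased to pass and 18 changed sign; of the counts of calls, 283 stayed within 1.5 times and 32 did not, and except where a construction below shows it, the cause was not tested. Regenerating against uninjured axons was the unstable comparison. With no error given to the reference, which lowers every standard error, 1588 genes were higher and 1990 lower, and among the 50 genes 3 were higher and 6 lower (3 hnRNPs and 3 stability genes). With the spread taken from all 12 measured arrays 2 genes were higher and 48 lower. Leaving out 1 array gave 0 to 15 higher and 0 to 361 lower genes: 361 lower without regenerating array 1, 3 without array 2 and 0 without array 3, and 256, 4, 151 and 8 without uninjured arrays 1, 2, 3 and 6. Among the 50 genes it gave 0 to 1 lower, the 1 being *Hnrnpc* without uninjured array 4 (0 to 1 for hnRNPs). Probe sets fitted singly, an alternative chosen after seeing the data, gave 1 lower member (1 hnRNP) there, 7 lower members in neurons, and 8 higher members in regenerating axons against neurons, where leaving out 1 array gave 1 to 2. With the probe set of highest mean, which by construction favours high values, signs changed for *Purb* in neurons (0.19), for *Gap43* against neurons (0.31), and against uninjured axons for *Gap43* (0.20), *Hnrnpa2b1* (0.55), *Map1b* (0.25), *Pcbp2* (0.40) and *Stau2* (0.15). With arrays shifted to a median of 0, *Cpeb1* (-0.00951), *Igf2bp3* (-0.15) and *Msi2* (-0.18) changed sign in neurons, and *Igf2bp3* (0.022) against neurons. Leaving out 1 array moved *Msi2* in neurons over -0.051 to 0.16, *Cpeb1* against neurons over -0.17 to 0.11, and in regenerating against uninjured axons *Elavl4* over -0.24 to 0.086, *Hnrnpab* over -0.20 to 0.12 and *Pura* over -0.032 to 0.27. None of these sign changes concerned a gene that passed, except *Gap43* against neurons. Deviations of same-numbered regenerating and neuron arrays from their group means had r = 0.17, 0.18 and -0.11. Those of differently numbered arrays had r = -0.25 to 0.21. With 3 arrays per group these values cannot show whether the numbers pair the samples. With a replicate block 41 members were lower and 2 higher in regenerating axons against neurons. *Cpeb3* did not pass there (limma adjusted p = 0.0641), nor with arrays shifted to a median of 0 (0.178). Array number, the unstated reference and the lack of a signal level limit what these values can show.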
